A study of Mus musculus with 4 samples.

Results

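The genes examined here encode the synaptotagmins, the syntaxins and other SNAREs, the synapsins, SV2, synaptophysin, synaptogyrin, complexin and Rab3 proteins, the syntaxin binding proteins and the active zone proteins of the RIM, Unc13, Bassoon and Piccolo families. They were chosen by gene symbol alone, without regard to the measured values. The rule took 146 of the 45281 probes of the Illumina MouseWG-6 v2.0 array, for 76 gene symbols. Of these, 98 probes of 57 genes were detected on at least 2 of the 4 arrays and were tested. The other 48 probes were detected on at most 1 array, and 19 genes had no tested probe.

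The cerebellum of untreated Swiss mice at postnatal day 7 was divided into anterior lobes and posterior lobes, and the question of the design was which transcripts differ between them. There were 2 samples per lobe, each hybridized to 1 array, and no allele, transgene or agent was named for either group. The number, sex and identity of the animals behind a sample and the line along which the lobes were parted were not given in the sources used here, so the p-values measure only the spread between these samples, which may be technical. With 2 samples against 2, an exact permutation test cannot give a two-sided p below 0.33, so single probes were tested in a limma fit across all tested probes. Each sample was whole lobe tissue, in which fewer cells of a type and less RNA per cell cannot be told apart.

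At a synapse, vesicles filled with transmitter are held by synapsins, brought to the active zone by Rab3 and RIM, and made ready for fusion by Unc13. A vesicle SNARE of the VAMP family zips up with syntaxin and SNAP25 of the plasma membrane, complexin holds the bundle, and synaptotagmin triggers fusion when calcium enters. In the first postnatal weeks of the mouse cerebellum, granule neurons are still being born and leave the outer layer, and their parallel fibres begin to form synapses on Purkinje cells.

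The start sites of these genes are shown first, since they are the sequences closest to the transcripts measured. RefSeq promoter windows of the mouse assembly GRCm38.p6, 250 bases before the start, were found for 59 of the 76 genes. Of the 5 genes whose probes were lower in posterior lobes (below), 4 had a window, and Syt12 (chromosome 19, positions 4445908 to 4477143) is named only. Printed 5′ to 3′ on the gene's strand, with the bases that lie in no annotated gene, are Rims1 (chr1:22806159-22806408, minus strand), Snap91 (chr9:86880735-86880958, minus strand), Stxbp2 (chr8:3630859-3630959, plus strand) and Syt6 (chr3:103574995-103575244, plus strand, the first of 3 starts). Syn1 (chrX:20920919-20921168, minus strand) is added as the gene of the group whose window held both the RE1 left arm and the CRE, described below. Capitals mark motif letters. In Rims1, Snap91 and Syt6 these are GC boxes (GGGCGG or CCGCCC), the letters bound by Sp1. In Syn1 they are TCAGCACC, the left arm of the RE1 element that the repressor REST binds, and TGACGTCA, the cyclic AMP response element (CRE).
Rims1: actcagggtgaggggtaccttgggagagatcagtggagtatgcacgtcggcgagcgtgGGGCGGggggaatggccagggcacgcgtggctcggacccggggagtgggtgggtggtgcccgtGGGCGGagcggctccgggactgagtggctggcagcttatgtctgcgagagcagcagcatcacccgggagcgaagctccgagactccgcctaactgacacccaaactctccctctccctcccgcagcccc
Snap91: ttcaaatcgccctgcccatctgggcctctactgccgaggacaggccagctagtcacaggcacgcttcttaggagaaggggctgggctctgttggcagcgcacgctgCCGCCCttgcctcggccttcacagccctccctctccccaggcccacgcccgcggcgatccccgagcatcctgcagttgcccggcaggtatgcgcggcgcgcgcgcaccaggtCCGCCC
Stxbp2: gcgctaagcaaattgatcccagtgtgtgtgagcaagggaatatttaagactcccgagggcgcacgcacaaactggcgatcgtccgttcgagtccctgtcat
Syt6: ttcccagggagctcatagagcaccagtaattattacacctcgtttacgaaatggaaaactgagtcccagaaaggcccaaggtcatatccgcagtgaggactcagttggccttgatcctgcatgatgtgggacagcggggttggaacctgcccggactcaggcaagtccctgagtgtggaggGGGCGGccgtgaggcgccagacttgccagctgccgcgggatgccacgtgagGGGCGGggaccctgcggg
Syn1: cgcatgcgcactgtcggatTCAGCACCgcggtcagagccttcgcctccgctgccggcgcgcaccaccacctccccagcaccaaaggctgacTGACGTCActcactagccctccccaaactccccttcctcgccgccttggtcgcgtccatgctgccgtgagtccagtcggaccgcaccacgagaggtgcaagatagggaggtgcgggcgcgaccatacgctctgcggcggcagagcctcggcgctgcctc

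Rims1, Snap91 and Syt6 each had 2 GC boxes in the printed bases and Stxbp2 had none in its 101. On both strands a GC box was found in 42 of the 59 windows (71.2%), against 42.7% of the 17492 windows of protein-coding genes, taking for each gene the start furthest upstream. The windows of these genes also had more G and C, with a median of 61.2% against 55.2%. A TATAAA was found in 3 of the 59 (5.08%) against 12.4%. The CRE was in 2 of the 59 windows, those of Stxbp3 and Syn1 (3.39% against 1.98%), and the RE1 left arm in that of Syn1 alone (1.69% against 1.26%). These are counts of letters in windows, and no binding was measured.

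The 4 arrays were alike in depth. The median intensity lay between 110.2 and 129.6, the median number of beads per probe was 40 to 42, and 46.5% to 47.6% of all probes were detected. Of the probes of synaptic vesicle and SNARE genes, 95 to 102 were detected per array. The engrailed genes En1 and En2, which mark the cerebellum and its midbrain neighbour, were detected on all 4 arrays. Of 8 granule neuron genes 6 had a tested probe, of which that of Gabra6 was detected on 2 arrays and the others on all 4. Replicate 2 of both lobes stood apart in the choroid plexus gene Ttr. Its log2 signal was 9.10 and 13.34 in anterior replicates 1 and 2 and 8.37 and 11.85 in posterior replicates 1 and 2. Clic6 had 8.85 and 9.55 against 8.08 and 8.54, and Aqp1 had 6.94 and 7.91 against 7.21 and 7.21. The mean over these 3 choroid plexus genes, 8.29 and 10.26 in anterior and 7.88 and 9.20 in posterior replicates, was moved mostly by Ttr.

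Most synaptic vesicle and SNARE probes differed little between the lobes, and the few that passed the study's criterion were all lower in posterior lobes. The criterion was a change over 1.2-fold with an unadjusted p under 0.05. By limma 5 of the 98 probes passed it downwards, those of Rims1, Stxbp2, Syt12, Snap91 and Syt6, and 0 upwards. This is 5.1% of the probes, where the criterion took 8.29% of the 21726 probes tested on the chip, 5% lower and 3.3% higher in posterior lobes. With Benjamini-Hochberg adjustment over all tested probes, limma called 0 of the 98 at an adjusted p of 0.05, against 0.106% of all probes. The lowest adjusted p among them was 0.201, and the methods' t-test found 12 with an unadjusted p under 0.05 and 0 adjusted. By limma 11 of the 98 had an unadjusted p under 0.05, where 2184 of the 21726 tested probes had one. The 6 with such a p but a change under 1.2-fold were probes of Cplx1, Sv2a, Syn1, Stx2, Syt4 and Syt9. The count of 5 moved with each array, to 20 without anterior replicate 1 (18 lower and 2 higher, when 22.1% of all tested probes passed), 9 without anterior replicate 2 (6 lower and 3 higher, against 9.17%), 3 without posterior replicate 1 (all lower, against 3.58%) and 2 without posterior replicate 2 (both lower, against 3.8%). The higher probes were those of Syt1 and Stx3 without anterior replicate 1, and of Syn2, Syt1 and Syt9 without anterior replicate 2. Scaling the arrays to a common 75th percentile gave 4 lower and 1 higher, the last being Syt9, and over all tested probes it moved the share of passing probes that were higher in posterior lobes from 39.7% to 53.5%.

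**Figure D1:**
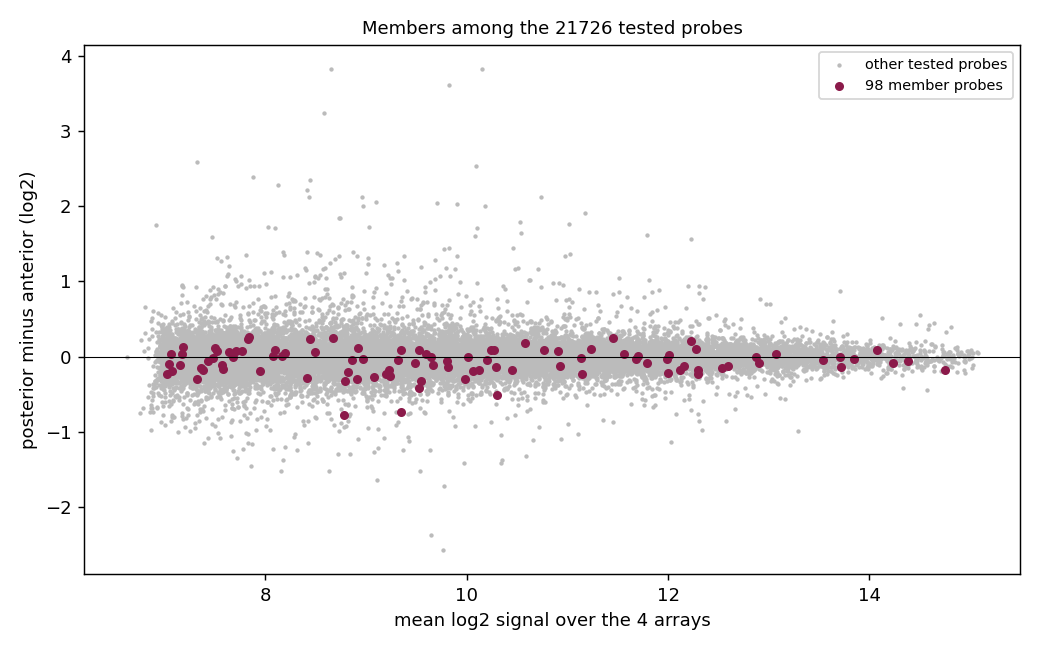
Difference between the lobes (posterior minus anterior, log2) against the mean log2 signal over the 4 arrays, for each of the 21726 tested probes. The 98 synaptic vesicle and SNARE probes, in dark red, run from -0.78 to 0.26 and lie within the cloud of other probes, in grey.

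Over the 98 probes the median difference was -0.05 on the log2 scale, with quartiles of -0.18 and 0.05. Over all tested probes the median was 0.0023. The sign was negative for 63 of the 98 (64.3%), against 49.4% of all tested probes. Both posterior arrays lay below both anterior arrays for 33 of the 98 (33.7%, against 21.5% of all tested probes) and above them for 11 (11.2%, against 21.1%). The probes of one gene share their source, so these counts are not of independent genes. The median log2 signal of the 98 probes was 9.59 and 9.76 in anterior and 9.56 and 9.55 in posterior replicates. Anterior replicate 2 thus stood above the other arrays, and anterior replicate 1 lay close to the posterior arrays. Without anterior replicate 2 the median difference was -0.03, and without anterior replicate 1 it was -0.06. The shares by role given below come from the same 4 arrays. The sizes were small, with 87 of the 98 differences under 1.2-fold. For 81 of the 98 (82.7%) the 95% interval of the difference lay within 1.5-fold in both directions, as it did for 82.8% of all tested probes.

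**Figure D2:**
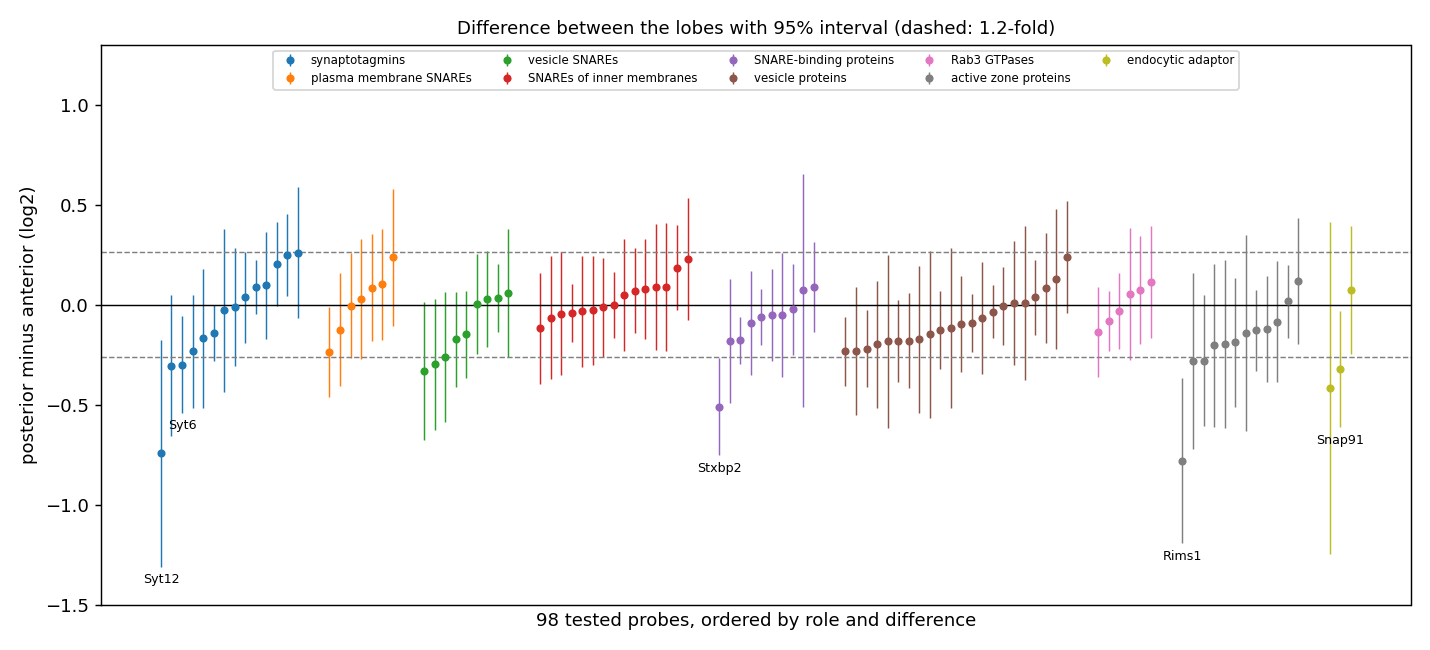
Difference between the lobes (posterior minus anterior, log2) with its 95% interval from limma, for the 98 tested probes ordered by the role of the protein and by the difference. The dashed lines mark 1.2-fold, and the 5 named probes are those lower in posterior lobes past the criterion, led by Rims1 at -0.78 and Syt12 at -0.74.

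Among active zone proteins, Rims1 gave the largest difference of all the tested probes of these genes. RIM1 binds Rab3 on the vesicle and Unc13 at the membrane and ties vesicles to calcium channels. Its probe ILMN_3082271 had log2 signals of 8.95 and 9.38 in the anterior replicates and 8.37 and 8.41 in the posterior replicates. The intensities as deposited were 541.8 and 619.6 against 326.9 and 338.6, so the lobes did not overlap. The difference was -0.78 ± 0.168 (SE, n = 2 per lobe, 95% interval -1.19 to -0.36), or 1.72-fold higher in anterior lobes, with an adjusted p of 0.251 by limma. Without anterior replicate 2, the higher of the 2, the difference was -0.56. The error between beads of this probe was at most 0.0666 log2 on any array, below the difference between the anterior replicates.

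Not every probe of Rims1 gave this size. A second probe, ILMN_3058780, had 7.90 and 8.19 in anterior and 7.68 and 8.02 in posterior replicates, a difference of -0.20 with overlapping lobes. Another, which the array lists as C030033M19Rik and RefSeq as an older name of Rims1, lay outside the rule. It had 10.89 and 11.18 against 10.82 and 10.73, a difference of -0.26 (adjusted p = 0.544 by limma). All 3 differences were negative, and the probes' places on the transcripts are not in the files used here.

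The other active zone probes were mostly negative but did not pass the criterion, so 1 of 12 passed (8.33%, against 8.29% of all tested probes). Of the 12 tested, Rims1 included, 10 had a negative sign (83.3%, against 49.4% of all tested probes) and both posterior arrays lay below both anterior arrays for 5 (41.7%, against 21.5%), with a median difference of -0.16. Piccolo (Pclo), a scaffold of the active zone, gave -0.28 and -0.20 at its 2 tested probes, and its partner Bassoon (Bsn) gave -0.12. Unc13c, the priming factor typical of granule neurons, gave -0.28, -0.14 and -0.08 at 3 probes, while Unc13a, its widely expressed relative, gave 0.12. The first Unc13c probe had 8.32 and 8.79 in anterior against 8.26 and 8.29 in posterior replicates. In it, as in the Pclo probes, the 2 anterior arrays were further apart than the 2 posterior arrays. Rims2 and Rims3, relatives of Rims1, gave -0.19 and -0.13, and Unc13b gave 0.02.

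Among the proteins that bind SNAREs, Stxbp2 was lower in posterior lobes and the other 9 tested probes did not pass the criterion. This is 10% of the 10, against 8.29% of all tested probes, and the median difference over the 10 was -0.06. Stxbp2 (Munc18-2) binds syntaxins and is best known from secretion in blood cells and epithelia. Its probe had log2 signals of 10.49 and 10.62 in anterior and 10.04 and 10.05 in posterior replicates, and intensities of 1544.3 and 1474.7 against 1018.1 and 1075.3. Replicates lay close together and the lobes well apart. The difference was -0.51 ± 0.0992 (SE, n = 2 per lobe, 95% interval -0.75 to -0.26), 1.42-fold higher in anterior lobes, with the lowest p of all the tested probes of these genes (adjusted p = 0.201 by limma). Under each of the 14 alternative settings of the fit it passed the criterion, at -0.58 to -0.44.

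Complexin 1 (Cplx1), which clamps the SNARE bundle, had 14.84 and 14.84 in anterior and 14.68 and 14.65 in posterior replicates. The lobes did not overlap, but the difference of -0.18 ± 0.0483 (SE, adjusted p = 0.338 by limma) was under 1.2-fold. Complexin 2 (Cplx2) had 7.47 and 7.99 against 8.06 and 7.54, a difference of 0.07 that changed sign without anterior replicate 1 or posterior replicate 1. Stxbp4 and Stxbp5 gave -0.18 to 0.09 over 4 probes.

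Synaptotagmins, of which several sense calcium for fusion, gave 2 probes lower in posterior lobes past the criterion among 14 tested (14.3%). The criterion took 8.29% of all tested probes, 5% lower and 3.3% higher, and with 14 probes these shares cannot be told apart. Syt12 is a synaptotagmin of synaptic vesicles that does not bind calcium. It had log2 signals of 9.39 and 10.06 in anterior and 9.10 and 8.87 in posterior replicates, from intensities of 730.1 and 995.2 against 535.8 and 470.7. The difference was -0.74 ± 0.231 (SE, n = 2 per lobe, 95% interval -1.31 to -0.17, adjusted p = 0.396 by limma), 1.67-fold higher in anterior lobes. The lobes did not overlap, yet the anterior arrays differed by more than the lower of them did from posterior replicate 1, and without anterior replicate 2 the difference was -0.41. Its other probe was detected on 1 array and was not tested.

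Syt6, a relative outside the calcium sensors of fast release, was close to background. It had 7.51 and 7.43 in anterior and 7.15 and 7.19 in posterior replicates, a difference of -0.30 ± 0.0986 (SE, adjusted p = 0.417 by limma). The lobes did not overlap, but the detection p-values in posterior replicates were 0.0363 and 0.0321, near the limit of 0.05. In 5 of the 14 alternative settings this probe did not pass the criterion. Its other 2 probes were detected on no array.

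Syt1, the main calcium sensor of fast release, gave positive signs at all 3 of its probes, and none passed. The brightest had 14.06 and 14.00 in anterior and 14.10 and 14.14 in posterior replicates, a difference of 0.09. The next had 12.04 and 12.20 against 12.28 and 12.37, a difference of 0.20 (adjusted p = 0.504 by limma), and the third, near background, gave 0.26 with a 95% interval of -0.07 to 0.59. At each of the 3 the lobes did not overlap, with posterior lobes the higher, as for 21.1% of all tested probes. These probes are of the same gene on the same arrays, so the 3 are not independent. Syt9, another calcium sensor, had 11.28 and 11.38 in anterior and 11.62 and 11.54 in posterior replicates. Its difference of 0.25 ± 0.0835 (SE, adjusted p = 0.421 by limma) was just under 1.2-fold here and past it, at 0.27, when arrays were scaled to the 75th percentile. Syt11, a relative without calcium binding, gave -0.30 and -0.23, and the bright probe of Syt4 gave -0.14. The remaining 5 probes, of Syt3, Syt4, Syt5, Syt13 and Syt16, ran from -0.17 to 0.10, and Syt2, Syt7, Syt8, Syt10, Syt14, Syt15 and Syt17 had no tested probe under these symbols. A probe that the array lists as B230112P13Rik, an older name of Syt7 in RefSeq and outside the rule, had 11.27 and 11.42 in anterior and 11.11 and 11.03 in posterior replicates. It was lower in posterior lobes past the criterion, with a difference of -0.27 (adjusted p = 0.422 by limma). The other tested probes found under older names, beside that of Rims1, were of Snap47 (-0.12), Stxbp4 (-0.13) and Vamp7 (0.47, with overlapping lobes), and none of these passed.

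The SNAREs themselves did not pass the criterion at any of their tested probes, 7 of the plasma membrane, 9 of vesicles and 15 of inner membranes. Of all tested probes 8.29% passed, so few calls would be due among so few probes. Syntaxin 1A (Stx1a), the plasma membrane partner in release, had 12.36 and 12.10 in anterior and 12.42 and 12.24 in posterior replicates. Its difference was 0.10 with overlapping lobes and a 95% interval of -0.17 to 0.38, and the sign turned without anterior replicate 2. Vamp2, the main vesicle SNARE of the brain, had 13.12 and 12.9985 against 13.12 and 13.06, a difference of 0.03 with an interval of -0.14 to 0.20, and its sign turned without the same array. Vamp1, its relative in hindbrain and spinal cord, gave negative values at both probes. These had 9.86 and 9.57 against 9.45 and 9.30 (-0.33, adjusted p = 0.515 by limma) and 9.48 and 9.25 against 9.16 and 9.05 (-0.26). The lobes did not overlap at either Vamp1 probe, with posterior lobes the lower, as for 21.5% of all tested probes. Vamp3, a SNARE of recycling endosomes, gave -0.17 and -0.30.

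Snap25, a core SNARE of neurons, could not be compared. The 2 probes of Snap25 were detected on no array, at intensities of 60.2 to 78.6. This describes those probes and not the transcript. Among the syntaxins and SNAP proteins of inner membranes the median difference was -0.002 and the range -0.12 to 0.23. The other plasma membrane SNAREs, such as Stx3 and Snap23, lay between -0.24 and 0.24. Stx2, at the lower end, was not detected on either posterior array and can only be put at 1.065-fold or more above the posterior detection limit in anterior lobes.

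Vesicle proteins gave 0 of 22 probes past the criterion, against 8.29% of all tested probes. Their median was -0.11, with 16 negative signs (72.7%, against 49.4% of all tested probes). Both posterior arrays lay below both anterior arrays for 9 of the 22 (40.9%, against 21.5% of all tested probes) and above them for 1 (4.55%, against 21.1%). SV2A (Sv2a), a transporter-like glycoprotein of vesicles, had 12.37 and 12.45 in anterior and 12.19 and 12.16 in posterior replicates at one probe. That difference was -0.23 ± 0.0702 (SE, adjusted p = 0.385 by limma), under 1.2-fold, and the second Sv2a probe gave -0.18. Sv2b gave 0.04. Synapsin 1 (Syn1), which tethers vesicles to actin, had 13.86 and 13.88 against 13.82 and 13.85 at its brighter probe, a difference of -0.03 that became 0.02 under scaling to the 75th percentile. At its dimmer probe it had 12.06 and 12.16 against 11.93 and 11.85, a difference of -0.22 (adjusted p = 0.443 by limma). So the 2 probes of Syn1 disagreed in size.

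Synapsin 2 (Syn2) gave -0.13 and 0.13 at its 2 probes, the second near background. Synapsin 3 (Syn3), found early in neuron development, gave -0.18 to 0.01 over 5 probes, 1 of them detected in anterior lobes alone. Synaptophysin (Syp), the most used marker of vesicles, had 14.25 and 14.30 in anterior and 14.14 and 14.23 in posterior replicates, a difference of -0.09 with a 95% interval of -0.23 to 0.06. The 4 tested probes of synaptogyrin 1 (Syngr1), a relative of synaptophysin, ran from -0.23 to 0.24. Rab3a, the Rab GTPase of vesicles, gave -0.14 and -0.08 (adjusted p = 0.647 and 0.685 by limma). At each Rab3a probe both posterior arrays lay below both anterior arrays, as for 21.5% of all tested probes.

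Snap91 (AP180) shares only its symbol stem with the SNAREs. It recruits clathrin to rebuild vesicles after fusion. The probe that passed the criterion had 8.90 and 9.01 in anterior and 8.66 and 8.60 in posterior replicates, a difference of -0.32 ± 0.118 (SE, n = 2 per lobe, adjusted p = 0.45 by limma), 1.25-fold higher in anterior lobes without overlap. A second probe had 9.18 and 10.28 against 9.28 and 9.36, so that only anterior replicate 2 was high, and the third gave 0.07. The 3 probes of Snap91 thus did not give 1 direction.

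**Figure D3:**
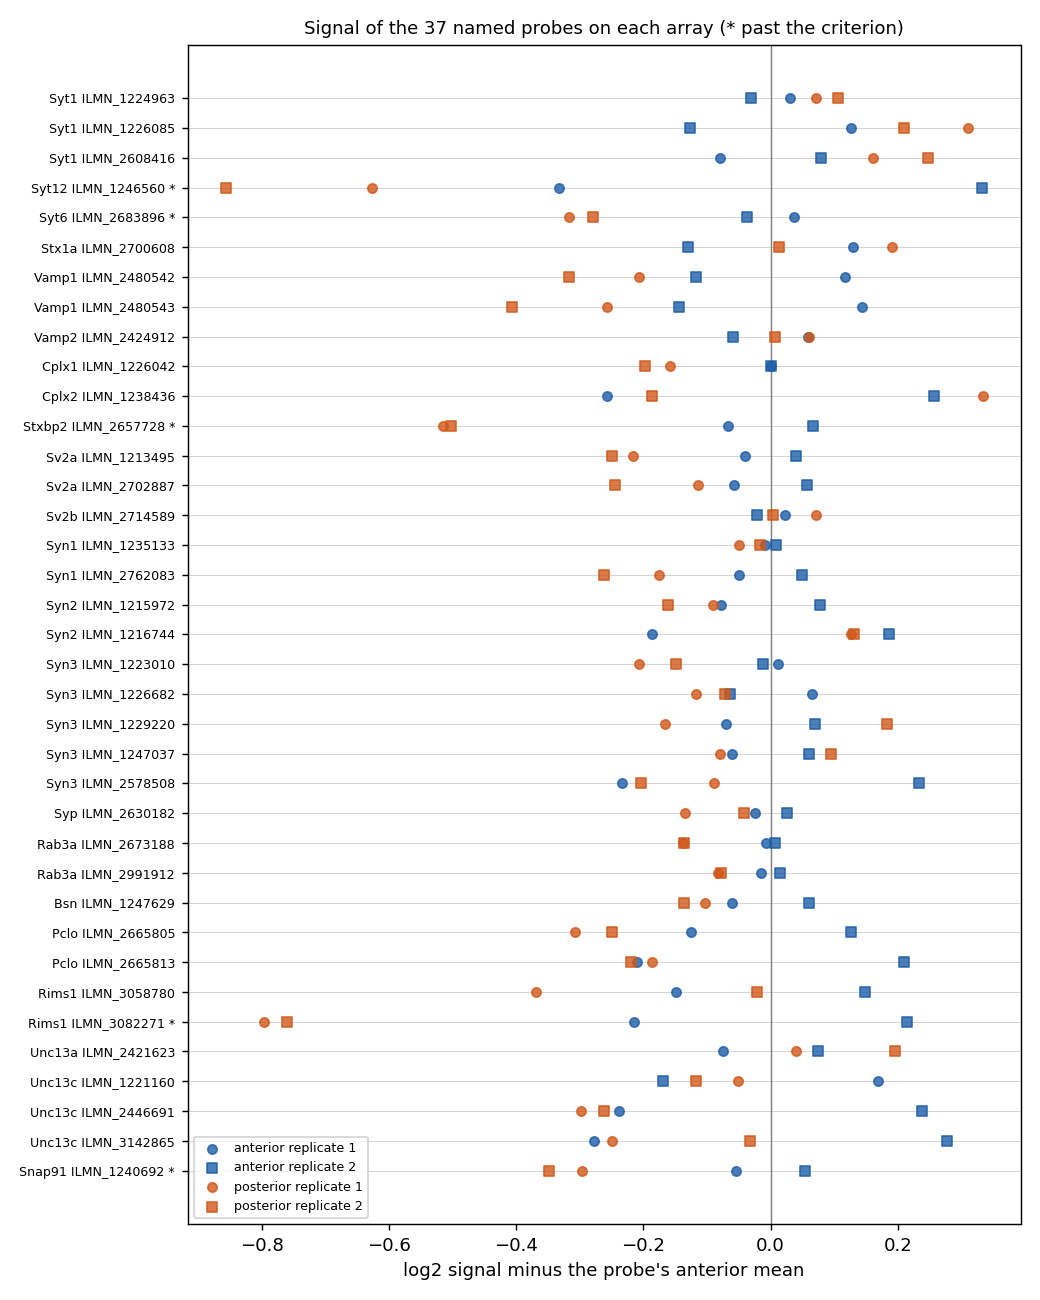
Log2 signal of the 37 named probes on each array, minus the probe's anterior mean, with anterior replicates in blue and posterior replicates in orange. Asterisks mark the 5 probes past the criterion, where both posterior arrays lie to the left of both anterior arrays, and in the other rows the lobe means differ by at most 0.33.

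The disagreement between probes was common. Of the 28 genes with several tested probes, the signs were the same at all probes for 18, of which 13 were all lower and 5 all higher in posterior lobes, and mixed for 10. A list of 24 genes of the release core held the sensors, SNAREs, clamps, priming factors and vesicle proteins best known at synapses, and 19 of these had a tested probe. Of their 36 probes, 1 passed the criterion, that of Rims1 (2.78%, against 8.29% of all tested probes). By limma 4 of the 36 had an unadjusted p under 0.05, where 2184 of the 21726 tested probes had one. The median difference was -0.09, with 25 negative (69.4%, against 49.4% of all tested probes) and 11 positive signs. Both posterior arrays lay below both anterior arrays for 18 of the 36 (50%, against 21.5% of all tested probes) and above them for 3 (8.33%, against 21.1%).

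Other genes of the vesicle cycle that the symbol rule does not take were read from a list of 31, covering NSF and its adaptors, Doc2, Caps, liprins, synucleins, endocytic proteins and vesicular transporters among others. Of its 42 tested probes, from 23 genes, 6 were lower and 1 was higher in posterior lobes past the criterion (16.7%, against 8.29% of all tested probes), and limma called 0 at an adjusted p of 0.05, with 9 at an unadjusted p under 0.05. Among probes detected on all 4 arrays, 5 of 39 passed (4 lower and 1 higher), where 7.93% of all such probes did. That filter leaves out the passing probes of Amph and Dnm1, described below, which were detected on anterior arrays alone. Over the 42 probes the median difference was -0.12 and 37 of the 42 signs were negative (88.1%, against 49.4%). Sh3gl2 (endophilin A1), which bends the membrane in endocytosis, had 10.83 and 11.55 in anterior and 10.12 and 10.39 in posterior replicates at one probe, a difference of -0.94 (adjusted p = 0.314 by limma). A second Sh3gl2 probe gave -0.87 and the brightest -0.01.

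Napa (alpha-SNAP, the adaptor of NSF) was lower at 1 of 3 probes, with a difference of -0.50, and its other, brighter probes gave 0.04 and -0.08. Cadps2 (CAPS2, a priming factor of dense-core vesicles) was lower at 1 of 2, with -0.54, and its brighter probe gave -0.17 without passing. Amph (amphiphysin) and Dnm1 (dynamin 1), both of endocytosis, were detected in anterior lobes only at the probes that passed, at least 1.36-fold and at least 1.14-fold higher there. The brightest of the 3 Amph probes had 12.79 and 12.78 in anterior and 12.78 and 12.73 in posterior replicates, a difference of -0.03 with overlapping lobes, and the other gave -0.41 without passing. The bound sets the anterior mean against the lowest signal of a detected probe on the posterior arrays. For Dnm1 the bound lies under 1.2-fold, so a change of the size of the criterion is not shown there. Slc17a6 (VGLUT2), the vesicular glutamate transporter of young granule neurons, was the 1 gene higher in posterior lobes. It had 13.46 and 13.26 in anterior and 13.76 and 13.57 in posterior replicates, a difference of 0.30 (adjusted p = 0.403 by limma), and its second probe gave 0.26. Slc17a7 (VGLUT1), the transporter of mature granule neurons, gave -0.22 (adjusted p = 0.417 by limma), under 1.2-fold.

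Markers of other cells moved between the same samples, in which the criterion took 8.29% of all tested probes. All 23 tested probes of 11 oligodendrocyte and myelin genes were negative, 21 of them past the criterion, with a median difference of -0.99. Their mean log2 signal was 11.35 and 11.40 in anterior and 10.55 and 10.40 in posterior replicates. Of 9 meningeal fibroblast probes 6 were higher in posterior lobes past the criterion, with a median of 0.49 and mean signals of 8.89 and 9.01 against 9.40 and 9.52. Granule neuron markers gave 0 of 6 probes past the criterion, with a median of -0.01 and mean signals of 10.77 and 10.71 against 10.65 and 10.79, and Cbln3 and Atoh1 had no tested probe. Purkinje cell markers gave 0 of 5, with a median of -0.12, over 3 of the 5 genes. Of 5 unipolar brush cell probes, the 2 of Calb2 were higher in posterior lobes past the criterion, at 0.44 and 0.37. Both probes of En1 were lower past it, at -0.47 and -0.56, and that of En2 gave -0.06. Endothelial markers had 1 of 6 probes higher past the criterion, with 3 negative and 3 positive signs and a median of -0.04. Choroid plexus markers had 1 of 3 lower past it, and astroglia, microglia and interneuron markers had 0 of 8, 0 of 6 and 0 of 3. The part of these cell types in the values of Rims1, Stxbp2, Syt12, Syt6 and Snap91 was not tested. Nor was that of the choroid plexus, whose gene Ttr was high in replicate 2 of each lobe.

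**Figure D4:**
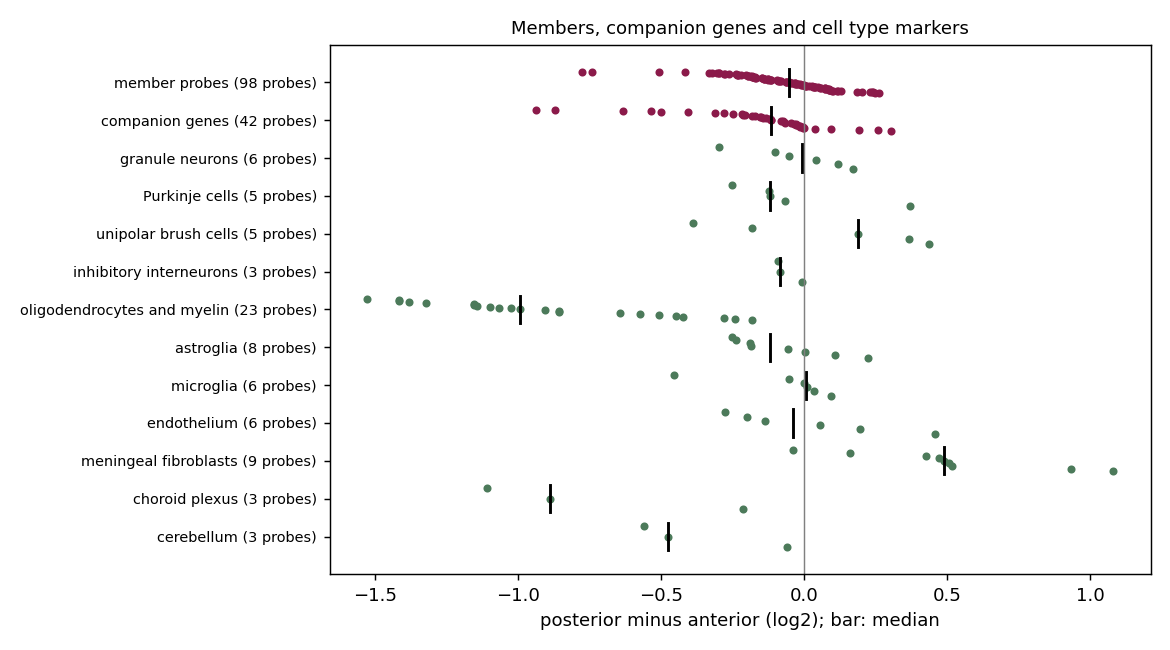
Difference between the lobes (posterior minus anterior, log2) for each tested probe of the synaptic vesicle and SNARE genes, of the 31 further genes of the vesicle cycle, labelled companion genes, and of the cell type marker lists, with the median as a bar. The synaptic medians are -0.05 and -0.12, against -0.99 for oligodendrocytes and myelin and 0.49 for meningeal fibroblasts.

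The 5 probes lower in posterior lobes differed in how they held when the fit was changed. Over 14 alternative settings the difference kept its negative sign for all 5. Stxbp2 passed the criterion in 14 of 14, Rims1 in 13 (all but the methods' t-test), Syt12 in 12, Snap91 in 10 and Syt6 in 9. Rims1 ran from -0.996 to -0.56 and Syt12 from -1.08 to -0.41, both with their extremes set by which anterior array was left out.

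**Figure D5:**
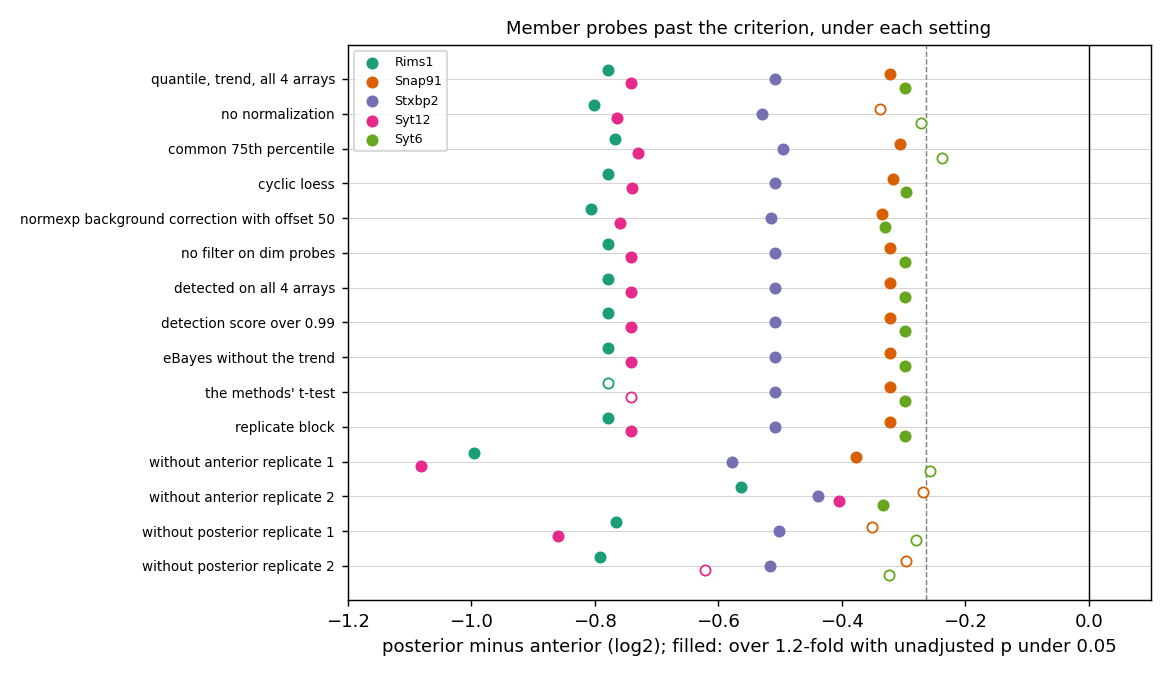
Difference between the lobes (posterior minus anterior, log2) of the 5 probes past the criterion under the setting reported and 14 alternatives. Filled points are over 1.2-fold with an unadjusted p under 0.05, and open points are not. Stxbp2 is filled throughout, and Rims1 and Syt12 move most when an anterior array is left out.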

How the data were processed

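RNA of 2 anterior and 2 posterior lobe samples was labelled and hybridized to Illumina bead arrays. Per the submitters' processing notes the scans were read with GenomeStudio 1.9.0. The authors deposited, per probe and array, the mean bead intensity without normalization or background subtraction, the SD and count of beads, and a detection score, deposited as a fraction of 0 to 1 that is 1 minus the detection p-value against negative controls. Another 16 columns were not used. Intensities were quantile normalized, floored at 1 and taken to log2 in R 4.3.3. Probes with a score over 0.95 on at least 2 of 4 arrays were fitted by lobe with limma 3.58.1 (lmFit, eBayes with trend), with Benjamini-Hochberg adjustment over all tested probes, and the scripts were tested on simulated data. Calls used the criterion of the study, over 1.2-fold with p under 0.05, on this fit.

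Named with values were the probes past the criterion, the tested probes of 24 release core genes and the 3 largest differences among probes detected on all 4 arrays. Other genes were named from lists, or, as Syt9, Syt11, Vamp3, Syngr1 and further relatives, after their values were seen. The genes, lists and roles were chosen with earlier results of these data known. All 76 symbols are RefSeq symbols of GRCm38.p6. The values of 2 genes are counted but not reported here by name. Each probe is reported on its own, and the number of arrays limits the precision. Alternatives changed the normalization, background correction, filter, variance model, test, replicate block, thresholds and arrays included.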

Additional observations from a re-analysis of the deposited data

How the results depend on the processing

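The count of 5 synaptic vesicle and SNARE probes past the criterion became 3 without normalization, 10 without a filter on dim probes (8 lower and 2 higher among 146), 3 with the methods' t-test, 8 with the replicate block and 2 at a threshold of 1.5-fold. Leaving out 1 array gave 2 to 20, and the highest count came without anterior replicate 1, when 22.1% of all tested probes passed. The count of 0 at an adjusted p of 0.05 became 2 with the replicate block, Rims1 (0.0145) and Stxbp2 (0.0335), and 0 to 10 when 1 array was left out. The 7 further vesicle cycle probes became 1 with the methods' t-test and 2 to 11 when 1 array was left out. The labels do not say that equal replicate numbers mark shared animals, and with 2 pairs they name samples only. The replicate differences of the lobes correlated at r = 0.458 over 21726 probes and 0.139 over the 98, which share the same 4 arrays. With 1 array left in a lobe, its spread was taken from the other lobe. Of 511 values of named probes under the alternatives, 470 kept sign and side of the criterion, 12 lost it, 14 gained it and 15 changed sign, among 11 probes. At the 75th percentile Syn1 stood at 0.0177, and Syn3 at -0.0026 without normalization. Leaving out 1 array gave -0.19 to 0.34 for Cplx2, -0.41 to 0.0075 for Pclo, -0.0287 to 0.23 for Stx1a, -0.0562 to 0.32 for Syn2, -0.17 to 0.18, -0.081 to 0.0969 and -0.38 to 0.0856 for 3 Syn3 probes, -0.25 to 0.0868 and -0.42 to 0.14 for 2 Unc13c probes, and -0.025 to 0.0913 for Vamp2. The causes were not tested.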
